A study of Mus musculus with 9 samples.

Results

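The genes described here encode the integrins, the receptors by which cells hold on to extracellular matrix, and the laminins, the matrix proteins of basement membranes that several of those receptors bind. Members were all protein-coding mouse genes of the count table whose symbol was Itga with a number or letters, Itgb with 1 digit, or Lama, Lamb or Lamc with 1 digit. This gave 37 of 38293 genes, namely 18 integrin alpha, 8 integrin beta, 5 laminin alpha, 3 laminin beta and 3 laminin gamma genes. Expression was measured by RNA-seq of poly-A RNA in E14, an established mouse embryonic stem cell (ESC) line, in 3 culture states, of which the labels list 3 biological replicates apiece. All libraries came from this 1 line, so that the spread between replicates does not cover other lines. The mESC-2i were kept in serum-free N2B27 medium with 10 ng/mL LIF, 1 µM of the MEK inhibitor PD0325901 and 3 µM of the GSK3 inhibitor CHIR99021. The mESC-ser, labelled as primed, were kept on 0.1% gelatin in DMEM with 15% fetal bovine serum and 10 ng/mL LIF. EpiLC, epiblast-like cells, were made from naive cells on dishes coated with human plasma fibronectin, in N2B27 with 20 ng/mL activin A, 12 ng/mL bFGF and 1% KSR. The growth surface of mESC-2i was not given in the sources used here, and surface, medium and cell state cannot be told apart between the groups.

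A laminin is a trimer of an alpha, a beta and a gamma chain that is assembled inside the cell, secreted, and then polymerises into the sheet on which a basement membrane is built. An integrin is a pair of an alpha and a beta subunit, and the alpha subunit largely sets the ligand. In the early mouse embryo, the cells of the epiblast lie on a laminin-rich basement membrane and contact it through integrins that contain the beta1 subunit.

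Promoter sequences are shown for 3 members on which the results below turn, the alpha integrin Itga3 and the laminin chains Lamb1 and Lamb2, which moved in opposite directions. They come from RefSeq promoter entries (build GRCm38.p6), which were found for 23 of the 37 members, and each is printed 5′ to 3′ on the strand of the gene and ends before the annotated gene start. Capitals mark matches on either strand to the GC box letters GGGCGG, to the CAAT box letters CCAAT or to the TATA box letters TATAAA. The Itga3 sequence (1 of 2 entries) lies at chr11:95076802-95076964 on the minus strand, that of Lamb1 at chr12:31265043-31265233 on the plus strand, and that of Lamb2 at chr9:108479612-108479735 on the plus strand. Cut at the annotated gene start, the stretches are 163, 191 and 124 bases long in that order. None of them overlapped an annotated exon.
Itga3: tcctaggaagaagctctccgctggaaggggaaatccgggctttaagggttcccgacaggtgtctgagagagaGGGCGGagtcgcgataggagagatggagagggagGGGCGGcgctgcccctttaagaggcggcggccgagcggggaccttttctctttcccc
Lamb1: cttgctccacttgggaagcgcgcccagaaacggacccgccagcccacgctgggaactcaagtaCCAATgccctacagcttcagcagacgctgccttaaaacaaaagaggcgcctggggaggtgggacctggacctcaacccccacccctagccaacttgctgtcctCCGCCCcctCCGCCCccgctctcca
Lamb2: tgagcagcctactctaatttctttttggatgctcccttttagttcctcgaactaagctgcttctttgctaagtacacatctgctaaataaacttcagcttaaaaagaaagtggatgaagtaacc
The Itga3 stretch held 2 copies of GGGCGG, whereas the Lamb1 stretch held 2 copies of it on the opposite strand and 1 of CCAAT, and the Lamb2 stretch had no match to the 3 motifs. G and C made up 62.6% of the bases shown for Itga3, 63.9% for Lamb1 and 37.9% for Lamb2. For the shares that follow, the first 250 bases of each entry were searched, without the cut at the annotated gene start. GGGCGG on either strand was present in 9 of the 26 member entries (34.6%) and in 32.7% of all 32851 entries. CCAAT was present in 4 of the 26 entries (15.4%) against 33.8% of all, and TATAAA in 0 of the 26 against 12.4%. These matches describe the letters in these windows and nothing about the factors that bind there.

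Totals ranged from 7187576 to 16829549 counts per library, which puts a floor of 3 counts at between 0.178 and 0.417 CPM, the counts relative to the library total. Levels below are CPM scaled by TMM over all 9 libraries, given per replicate in the order 1, 2 and 3 or as mean ± SD (n = 3), and levels of different genes are compared only per kb of annotated exon. A gene was called higher or lower at an adjusted p under 0.05 in edgeR's quasi-likelihood test where its log2 fold change was also beyond 0.5 in size. The culture states were checked by their markers. Klf4, a factor of naive cells, stood at 367 ± 20.9 CPM for mESC-2i, 152 ± 17.9 for mESC-ser and 1.26 ± 0.614 for EpiLC, and Fgf5, which marks the formative epiblast, at 0.0816 ± 0.0834, 3.90 ± 0.700 and 122 ± 6.01 CPM. Of the 11 state markers, 4 were called higher and 4 lower in mESC-ser versus mESC-2i, and 4 and 6 in each EpiLC comparison. Of all genes tested, 25.9% were called higher and 30.3% lower in mESC-ser versus mESC-2i. The shares were 32.0% and 37.8% in EpiLC versus mESC-2i, and 35.5% and 37.8% in EpiLC versus mESC-ser. Pou5f1, which marks pluripotent cells of each state, was not called in any of the 3 comparisons. Sox2, by contrast, was called lower in EpiLC than in mESC-2i (-2.94, SE 0.11, adjusted p = 4.75e-09) and than in mESC-ser (-2.96, SE 0.10, adjusted p = 1.57e-13). Nanog was called lower in the same 2 comparisons (-3.43 and -2.14) and in mESC-ser versus mESC-2i (-1.24). In bulk RNA, fewer cells that express a gene and less RNA per cell cannot be told apart.

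Integrin and laminin genes took 0.190% ± 0.0304 of the counts for mESC-2i, 0.263% ± 0.0206 for mESC-ser and 0.0776% ± 0.00182 for EpiLC. Of the 37 members, 29 passed the filter on low counts in at least 1 comparison, 22 passed it in all 3, and 8 passed it in none. A member that is low in 1 group could pass through the other group alone, so the counts that follow cover the tested members and not the whole family.

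In mESC-ser versus mESC-2i, 14 of 28 tested members were called higher and 8 lower, and 6 were not called. Of all 15728 genes tested, 25.9% were called higher and 30.3% lower. The groups did not overlap for 22 of the 28 members, against 70.7% of all genes tested. The median log2 fold change was 0.60 over the members and -0.04 over all genes. In EpiLC versus mESC-2i, 5 of 22 were called higher and 11 lower, where 32.0% and 37.8% of all genes were called in those directions, and the medians were -0.57 and -0.11. The share of members without overlap was 18 of 22, against 81.8% of all genes tested. In EpiLC versus mESC-ser, 24 of 29 were called lower and 4 higher, where 37.8% and 35.5% of all genes were, and the medians were -1.67 and -0.07. All 29 were without overlap in that comparison, as were 85.7% of all genes tested. Scaled by total counts, 4 members were higher and 14 lower in EpiLC versus mESC-2i, and 4 and 25 in EpiLC versus mESC-ser, while the higher share of all calls went from 45.9% to 33.7% and from 48.4% to 37.4%. The 3 comparisons share their libraries and are not independent of one another.

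Members are long genes, with a median of 7015 bp of annotated exon over the 37 and a range from 2770 to 18599 bp. Protein-coding genes tested had medians of 4426, 4390 and 4430 bp in the 3 comparisons. Fold changes moved with exon length across those genes, with Spearman correlations of 0.28 in mESC-ser versus mESC-2i, -0.30 in EpiLC versus mESC-2i and -0.498 in EpiLC versus mESC-ser. Genes are not independent replicates, and these values are descriptions. Each fit was therefore repeated with offsets for length and GC content, after which the correlations were 0.0291, -0.0431 and -0.0721. The members called were then 13 higher and 8 lower in mESC-ser versus mESC-2i, 5 and 11 in EpiLC versus mESC-2i, and 5 and 19 in EpiLC versus mESC-ser, with medians of 0.45, -0.46 and -1.07. Background shares under the correction were 25.2% and 27.4%, 29.0% and 35.3%, and 32.1% and 32.9%, higher first. For the members named below, the corrected value is given, named as such, where it changed a call or moved a called fold change by over 1.5 times. Sums and ratios of levels per kb were not corrected.

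**Figure D1:**
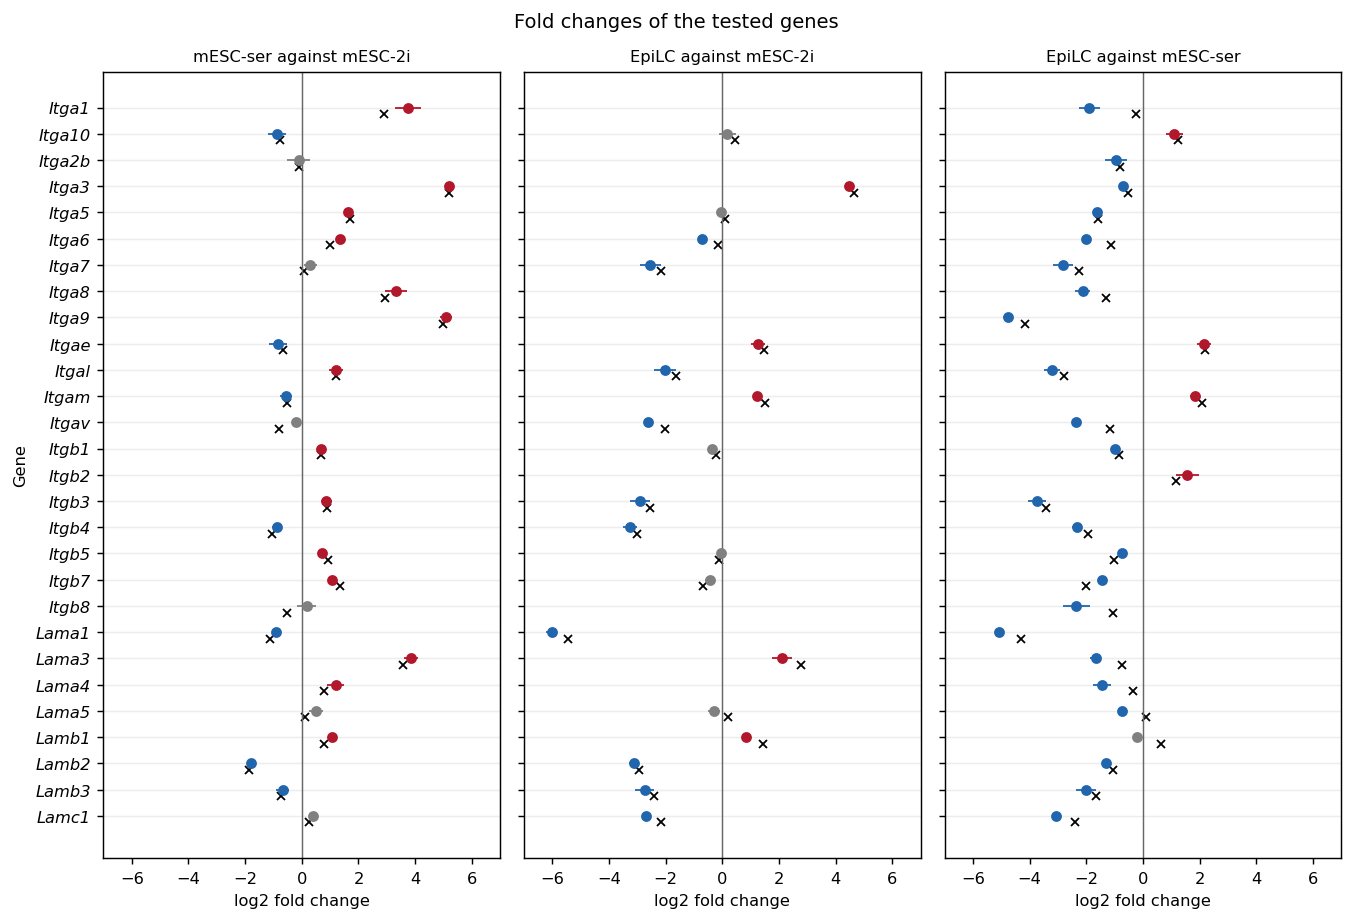
Log2 fold changes (x axis) of tested members (y axis) in the 3 comparisons, with bars of 1 SE. Red marks members called higher, blue called lower and grey not called, and crosses give the value after correction for exon length and GC content. In EpiLC versus mESC-ser most points lie left of 0 and their crosses nearer to it, and Lama5 and Lamb1 have crosses right of 0 (0.11 and 0.65). Itgb8 held 3, 2 and 1 counts in EpiLC, so that its fitted value there is no measure of fold.

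The laminin alpha chains carry the sites at which cells bind the trimer. Lama1 (chr17:67697259-67822647 in mm10), whose chain belongs to the first laminin of the embryo, was measured at 204, 185 and 257 CPM for mESC-2i, 114, 113 and 133 CPM for mESC-ser and 3.22, 4.34 and 2.26 CPM for EpiLC. The 3 groups did not overlap, and the EpiLC libraries lay far below all others. Lama1 fell by 0.91 (SE 0.14, adjusted p = 0.000189) on the log2 scale from mESC-2i to mESC-ser and was 65.6-fold lower in EpiLC than in mESC-2i (log2 fold change -6.03, SE 0.21, adjusted p = 4.15e-09). EpiLC were 33.9-fold below mESC-ser (-5.08, SE 0.15, adjusted p = 5.42e-14, and -4.29 corrected).

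Lama5 (chr2:180176373-180225859), which codes for the broadly used alpha chain of epithelial and vessel basement membranes, kept a high level in every state. It stood at 224, 214 and 423 CPM for mESC-2i, 384, 389 and 501 CPM for mESC-ser and 239, 243 and 233 CPM for EpiLC. Replicate 3 of mESC-2i stood apart from replicates 1 and 2 and lay within the range of mESC-ser. It was also the highest of its group for Lama1, Lamb2, Lamc1 and Itgb4. Replicate 3 of mESC-ser was likewise the highest of its group for Lama5 and for each of those genes. Lama5 was not called in mESC-ser versus mESC-2i (0.51, SE 0.24, adjusted p = 0.0814). Without mESC-2i replicate 3, and with mESC-ser replicate 3 kept, it was called at 0.90 (adjusted p = 7.57e-06). With the replicate number as a block it was called at 0.57 (adjusted p = 0.000862). DESeq2 called it as well (0.54, adjusted p = 0.0265), whereas the corrected value was 0.10. EpiLC and mESC-2i overlapped (-0.29, SE 0.22, adjusted p = 0.249), and total-count scaling made that difference a call (-0.63, adjusted p = 0.0235). EpiLC were called lower than mESC-ser by edgeR (-0.75, SE 0.10, adjusted p = 1.96e-06), but this call was lost and the sign turned under the correction for length and GC content (0.11, adjusted p = 0.0944).

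The shift from Lama1 to Lama5 can be read within each library, where scaling has no part. Per kb of exon, the ratio of Lama5 to Lama1 was 0.935, 0.981 and 1.40 for mESC-2i, 2.87, 2.94 and 3.21 for mESC-ser and 63.0, 47.6 and 87.7 for EpiLC. Lama1 thus made up 47.8% ± 5.40 of the summed alpha chain level per kb for mESC-2i, 24.5% ± 1.02 for mESC-ser and 1.56% ± 0.459 for EpiLC. Lama5 made up 51.9% ± 5.48, 73.5% ± 1.29 and 97.0% ± 0.343. With 3 libraries against 3, an exact permutation test of such shares cannot go below p = 0.10, and no test of them was run.

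The other alpha chains were low. Lama3, a chain of the laminin under epidermal cells, stood at 0.606 ± 0.263 CPM for mESC-2i, 8.79 ± 0.423 for mESC-ser and 2.60 ± 0.377 for EpiLC. It was 14.4-fold higher in mESC-ser than in mESC-2i (3.85, SE 0.26, adjusted p = 7.96e-07), with 7, 4 and 8 counts behind the lower level. EpiLC lay between the other groups (2.12, SE 0.35, adjusted p = 0.00022 versus mESC-2i and -1.67, SE 0.18, adjusted p = 2.08e-07 versus mESC-ser). The corrected values were 2.78 and -0.74, and both were called. Lama3 shares 197 bp of exon with the opposite-strand gene Gm29200, and the kit does not mark strand. Lama4, a chain of vessel and fat basement membranes, reached 2.00 ± 0.191 CPM in mESC-ser, against 0.828 ± 0.297 in mESC-2i and 0.686 ± 0.0669 in EpiLC. Its calls, higher in mESC-ser than in mESC-2i (1.19, SE 0.30, adjusted p = 0.00479) and lower in EpiLC than in mESC-ser (-1.45, SE 0.31, adjusted p = 0.000383), were both lost under the correction (0.77 and -0.35). Lama2, the muscle and nerve chain, held at most 8 counts in any library and was not tested.

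**Figure D2:**
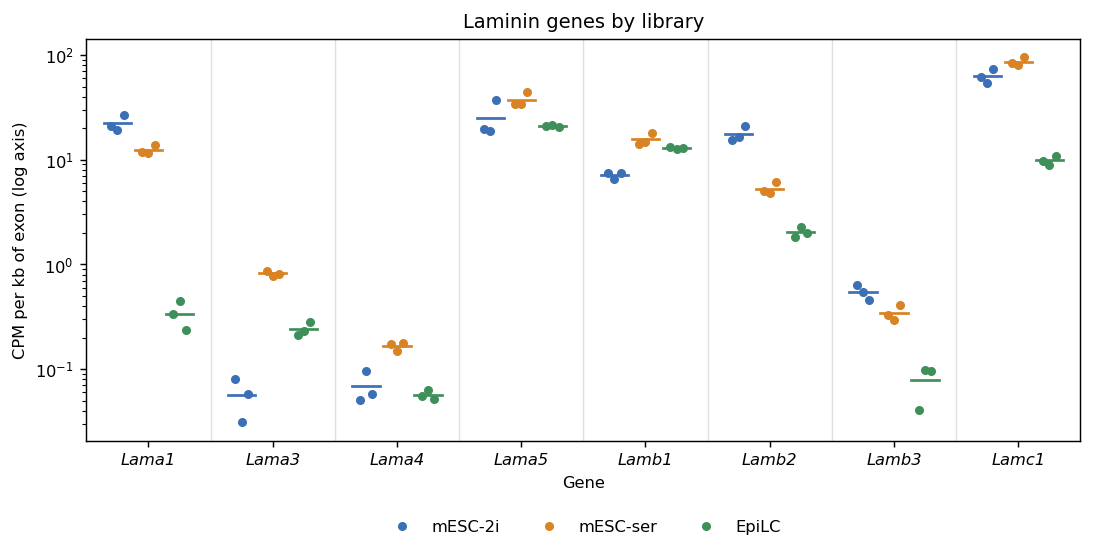
Level per kb of exon (log axis) of 8 laminin genes in each library, with 3 points per group and a bar at the group mean. Lama1 and Lamc1 are lowest in EpiLC, Lama5 lies between 18.8 and 44.0 in all 9 libraries with mESC-2i replicate 3 at 37.1, and Lamb1 and Lamb2 move in opposite directions from mESC-2i to mESC-ser.

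Of the beta chains, Lamb1 and Lamb2 exchanged places. Lamb1 (chr12:31265234-31329644), the beta chain of the early embryonic laminins, stood at 74.3, 65.0 and 74.5 CPM for mESC-2i, 140, 145 and 178 CPM for mESC-ser and 132, 125 and 127 CPM for EpiLC. All libraries of mESC-ser and EpiLC lay above all of mESC-2i. Lamb1 was 2.08-fold higher in mESC-ser (1.06, SE 0.12, adjusted p = 3.2e-05) and 1.77-fold higher in EpiLC (0.82, SE 0.09, adjusted p = 1.39e-05) than in mESC-2i, although the latter lost its call when libraries were scaled by total counts alone (0.48) and stood at 1.44 when corrected. Between EpiLC and mESC-ser it was not called (-0.19, SE 0.09, adjusted p = 0.0694), whereas the corrected value was 0.65 and called higher (adjusted p = 1.66e-07) and total-count scaling gave -0.53, called lower. No direction is therefore given for that pair.

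Lamb2 (chr9:108479736-108490530), the beta chain of the kidney filter and the nerve-muscle synapse, was measured at 93.3, 99.6 and 127 CPM for mESC-2i, 30.3, 29.3 and 37.0 CPM for mESC-ser and 11.1, 13.7 and 12.1 CPM for EpiLC. The groups formed 3 separate steps. Lamb2 was 3.44-fold lower in mESC-ser (-1.78, SE 0.14, adjusted p = 2.51e-06) and 8.75-fold lower in EpiLC (-3.13, SE 0.15, adjusted p = 2.51e-08) than in mESC-2i, and 2.47-fold lower in EpiLC than in mESC-ser (-1.30, SE 0.13, adjusted p = 5.07e-08). The promoter stretches printed above are those of these oppositely moving genes.

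Per kb of exon, Lamb1 was below Lamb2 in each mESC-2i library, with ratios of 0.488, 0.40 and 0.361, and above it in all others, with ratios of 2.83, 3.03 and 2.95 for mESC-ser and 7.24, 5.62 and 6.44 for EpiLC. Lamb1 made up 28.6% ± 2.99 of the beta chain level for mESC-2i, 73.4% ± 0.714 for mESC-ser and 86.0% ± 1.65 for EpiLC. The summed beta level changed less than its make-up, at 25.3 ± 3.09, 21.2 ± 2.83 and 15.0 ± 0.144 CPM per kb. Lamb3, the beta chain of the epidermal laminin, was low throughout, at 3.60 ± 0.567, 2.27 ± 0.384 and 0.516 ± 0.215 CPM. It was called lower in EpiLC than in mESC-2i (-2.74, SE 0.34, adjusted p = 2.77e-05) and than in mESC-ser (-2.02, SE 0.35, adjusted p = 5.34e-05). Its lower call in mESC-ser versus mESC-2i (-0.68, SE 0.22, adjusted p = 0.02) was not made by DESeq2 (adjusted p = 0.067) and was lost without any 1 of 3 libraries (mESC-ser replicates 1 and 2 and mESC-2i replicate 1).

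Lamc1 (chr1:153218922-153332786), the gamma chain shared by most laminins, stood at 513, 445 and 609 CPM for mESC-2i, 692, 659 and 794 CPM for mESC-ser and 80.8, 73.4 and 89.7 CPM for EpiLC. Per kb of exon it was the highest of the 11 laminin genes in the mean of mESC-2i and of mESC-ser (63.2 ± 9.96 and 86.5 ± 8.49 CPM per kb), but not in EpiLC, where it stood at 9.83 ± 0.984 against 20.9 ± 0.441 for Lama5 and 12.9 ± 0.335 for Lamb1. Lamc1 was 6.52-fold lower in EpiLC than in mESC-2i (-2.70, SE 0.14, adjusted p = 4.26e-08) and 8.30-fold lower than in mESC-ser (-3.05, SE 0.10, adjusted p = 1.15e-13, and -2.40 corrected). The difference between mESC-ser and mESC-2i was under the fold threshold (0.39, SE 0.13, adjusted p = 0.0244). It passed the threshold without mESC-2i replicate 3 and with mESC-ser replicate 3 kept (0.52, adjusted p = 0.000645). Lamc3, a gamma chain of the retina and nerves, held at most 3 counts in any library.

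All laminin genes together summed to 145 ± 26.9 CPM per kb for mESC-2i, 165 ± 18.5 for mESC-ser and 46.6 ± 0.437 for EpiLC. The make-up of the alpha and beta laminins and of the alpha integrins is plotted by library.

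**Figure D3:**
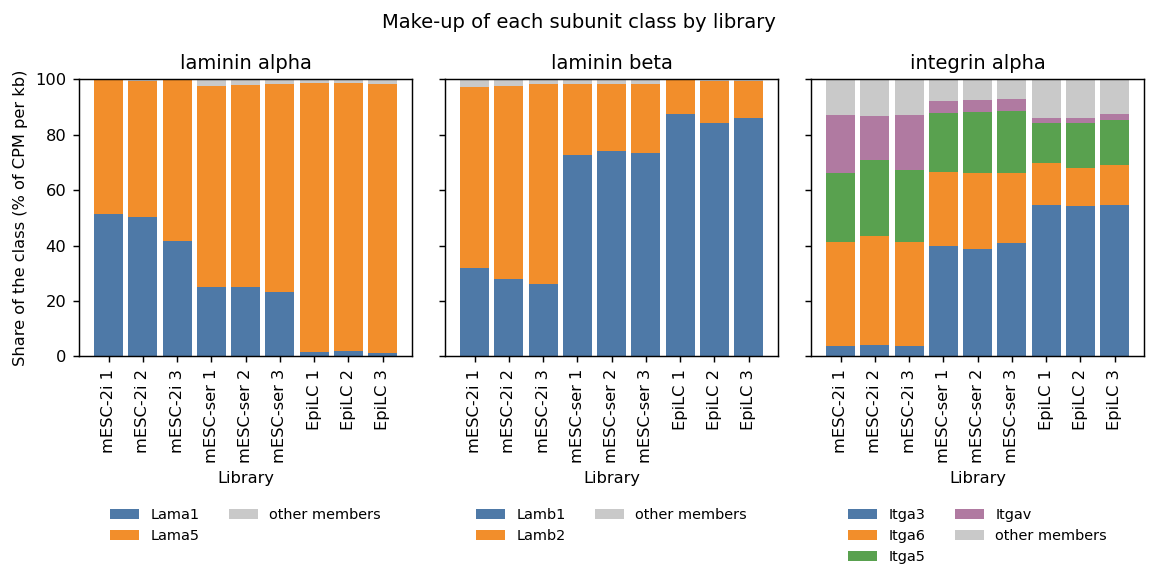
Share of each subunit class (y axis, % of summed CPM per kb) taken by its main members in each of the 9 libraries (x axis). Lama1 goes from 47.8% in mESC-2i to 1.56% in EpiLC, Lamb1 from 28.6% to 86.0% and Itga3 from 3.96% to 54.5%, and the 3 replicates of a group look alike apart from the larger Lama5 share of mESC-2i replicate 3.

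Among the alpha integrins that bind laminin, Itga3 rose most. Itga3 (chr11:95044474-95076801), which pairs with beta1 and prefers laminins with the alpha3 or alpha5 chain, stood at 5.65, 6.09 and 6.16 CPM for mESC-2i, 227, 208 and 254 CPM for mESC-ser and 135, 132 and 134 CPM for EpiLC. No library of mESC-ser or EpiLC came near those of mESC-2i. It was 36.8-fold higher in mESC-ser (5.20, SE 0.13, adjusted p = 7.2e-09) and 22.0-fold higher in EpiLC (4.46, SE 0.10, adjusted p = 4.15e-10) than in mESC-2i. EpiLC lay 1.62-fold below mESC-ser (-0.70, SE 0.08, adjusted p = 8.65e-07).

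Itga6 (chr2:71745616-71858416), which pairs with beta1 or beta4 and binds laminins broadly, was measured at 87.7, 90.1 and 94.4 CPM for mESC-2i, 237, 232 and 245 CPM for mESC-ser and 60.5, 51.9 and 55.8 CPM for EpiLC. It was highest in mESC-ser, 2.52-fold above mESC-2i (1.33, SE 0.09, adjusted p = 8.9e-07), and EpiLC lay 4.01-fold below mESC-ser (-2.0, SE 0.08, adjusted p = 1.4e-12), a fold change that the correction brought to -1.12. The lower level in EpiLC than in mESC-2i (-0.72, SE 0.09, adjusted p = 3.44e-05) lost its call under the correction (-0.14, adjusted p = 0.137). Itga7, the laminin receptor of muscle, was low in every state (2.60 ± 0.480, 3.37 ± 0.560 and 0.461 ± 0.216 CPM) and was called lower in EpiLC than in mESC-2i (-2.54, SE 0.38, adjusted p = 0.000102) and than in mESC-ser (-2.81, SE 0.35, adjusted p = 1.23e-06).

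The ratio of Itga3 to Itga6 per kb was 0.102, 0.107 and 0.103 for mESC-2i, 1.51, 1.42 and 1.64 for mESC-ser and 3.53, 4.01 and 3.79 for EpiLC. From mESC-ser to EpiLC the corrected fold changes of the 2 genes, -0.51 for Itga3 and -1.12 for Itga6, lay closer together than the uncorrected ones. Itga3 took 3.96% ± 0.211, 40.0% ± 1.14 and 54.5% ± 0.175 of the summed alpha integrin level, and Itga6 took 38.1% ± 1.09, 26.3% ± 1.13 and 14.5% ± 0.921. The 3 laminin-binding alpha integrins together held 43.3% ± 1.39, 66.8% ± 0.198 and 69.1% ± 0.988 of that level. EpiLC thus had the largest share of alpha integrins in this group and the lowest summed laminin level of the 3 states.

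Among the alpha integrins that bind the RGD motif of fibronectin and vitronectin, Itga5 and Itgav behaved differently. Itga5 (chr15:103344286-103366763), the main fibronectin receptor subunit, stood at 31.7, 34.0 and 35.8 CPM for mESC-2i, 104, 102 and 119 CPM for mESC-ser and 31.1, 33.8 and 34.7 CPM for EpiLC. EpiLC and mESC-2i overlapped (-0.05, SE 0.10, adjusted p = 0.694), whereas mESC-ser lay 3.07-fold above mESC-2i (1.62, SE 0.11, adjusted p = 6.53e-07) and EpiLC lay 3.07-fold below mESC-ser (-1.62, SE 0.09, adjusted p = 5.65e-11). EpiLC were grown on fibronectin and the surface of mESC-2i is not given, so the part of the surface in these levels was not tested.

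Itgav (chr2:83724397-83806916), which pairs with several beta subunits, was measured at 58.7, 43.4 and 58.9 CPM for mESC-2i, 47.9, 42.7 and 52.7 CPM for mESC-ser and 8.59, 8.79 and 8.92 CPM for EpiLC. EpiLC lay 6.19-fold below mESC-2i (-2.63, SE 0.15, adjusted p = 1.2e-07) and 5.14-fold below mESC-ser (-2.36, SE 0.12, adjusted p = 9.68e-12). The corrected values were -2.02 and -1.16, and both were called. The overlapping mESC groups were not called (-0.22, SE 0.14, adjusted p = 0.196), but at a length of 10744 bp the correction moved this to -0.81 (adjusted p = 7.9e-05). Itgav overlaps the opposite-strand gene Gm13684 over 634 bp of exon, and the kit does not mark strand.

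Itga8, a nephronectin receptor, stood at 0.503 ± 0.442, 5.68 ± 0.932 and 1.23 ± 0.329 CPM. It was called higher in mESC-ser than in mESC-2i (3.32, SE 0.38, adjusted p = 3.2e-05) and lower in EpiLC than in mESC-ser (-2.13, SE 0.25, adjusted p = 6.82e-07, and -1.30 corrected). It shares 372 bp of exon with the opposite-strand gene E030013I19Rik. Itga2b, the platelet subunit, reached at most 30 counts in a library (mESC-2i replicate 3) and was called only in EpiLC versus mESC-ser (-0.96, SE 0.39, adjusted p = 0.0299), a call that DESeq2, the correction (-0.82, adjusted p = 0.0553), the fit of all 9 libraries and 3 of the 6 fits with 1 library left out did not make. The RGD-binding group made up 46.0% ± 1.93, 27.2% ± 0.484 and 18.3% ± 1.14 of the alpha integrin level per kb.

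Itga9 (chr9:118606690-118901003), a receptor for tenascin and osteopontin, was highest in mESC-ser. It stood at 0.737, 0.50 and 0.936 CPM for mESC-2i, 25.2, 25.8 and 27.0 CPM for mESC-ser and 1.21, 0.651 and 0.879 CPM for EpiLC. It was 34.0-fold higher in mESC-ser than in mESC-2i (5.09, SE 0.20, adjusted p = 3.33e-08) and 27.1-fold lower in EpiLC than in mESC-ser (-4.76, SE 0.19, adjusted p = 7.66e-13, and -4.15 corrected). It did not pass the filter in EpiLC versus mESC-2i. Itga4, its nearest relative, held at most 13 counts in a library and was not tested.

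The collagen-binding subunits were low in all states and summed to 0.359 ± 0.0795, 0.420 ± 0.0810 and 0.415 ± 0.0749 CPM per kb. Itga1, at 0.273 ± 0.208, 3.49 ± 0.987 and 0.893 ± 0.570 CPM, was called higher in mESC-ser than in mESC-2i (3.75, SE 0.46, adjusted p = 4.66e-05, and 2.90 corrected). Its lower call in EpiLC versus mESC-ser (-1.90, SE 0.37, adjusted p = 0.000157) was lost under the correction (-0.26), and it is the longest member at 18599 bp. Itga10 averaged at most 1.90 CPM in a group. It was called higher in EpiLC than in mESC-ser (1.10, SE 0.30, adjusted p = 0.00261), and its lower call in mESC-ser versus mESC-2i (-0.88, SE 0.33, adjusted p = 0.0345) was not made by DESeq2 (adjusted p = 0.111) and was lost in 4 of 6 fits with 1 library left out. Itga2 and Itga11 held at most 2 and 4 counts. Both Itga1 and Itga10 share exon bases with same-strand gene models (Gm49395 and Gm42957), and their counts are uncertain for that reason.

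**Figure D4:**
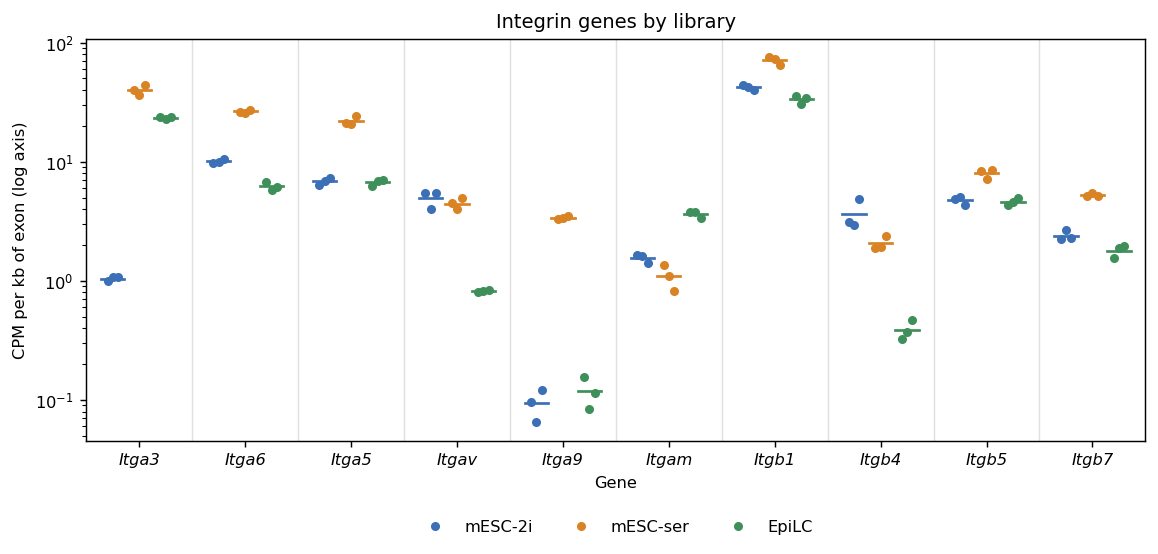
Level per kb of exon (log axis) of the 10 integrin genes that averaged 10 CPM or more in a group, by library, with a bar at the group mean. Itga3 and Itga9 show the widest gap between mESC-2i and mESC-ser, Itgam is highest in EpiLC, and Itgav and Itgb4 have their lowest points there.

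The subunits known from leukocytes were higher in EpiLC as a group (4.77 ± 0.310 CPM per kb, against 2.33 ± 0.194 in mESC-2i and 2.17 ± 0.243 in mESC-ser), and Itgam carried most of it. Itgam, a subunit of the macrophage complement receptor, stood at 8.23, 8.09 and 7.02 CPM for mESC-2i, 6.86, 5.52 and 4.13 CPM for mESC-ser and 18.9, 19.1 and 17.0 CPM for EpiLC. The EpiLC libraries lay above all others (1.22, SE 0.14, adjusted p = 1.32e-05 versus mESC-2i and 1.84, SE 0.16, adjusted p = 1.72e-08 versus mESC-ser). Its lower call in mESC-ser versus mESC-2i (-0.56, SE 0.20, adjusted p = 0.0313) was lost in 4 of 6 fits with 1 library left out and with DESeq2 (adjusted p = 0.052). Itgam shares 3450 of its 5024 exon bases with the same-strand gene model Gm49368, so that its reads cannot be assigned with certainty.

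Itgae, which binds E-cadherin together with beta7, stood at 2.01 ± 0.544, 1.13 ± 0.298 and 4.76 ± 0.352 CPM and was called higher in EpiLC than in mESC-2i (1.25, SE 0.25, adjusted p = 0.000761) and than in mESC-ser (2.15, SE 0.24, adjusted p = 2.48e-07). Its lower call in mESC-ser versus mESC-2i (-0.85, SE 0.31, adjusted p = 0.0328) was lost under the correction (adjusted p = 0.0784), with DESeq2 (adjusted p = 0.0885) and in 4 of 6 fits with 1 library left out. Itgal moved the other way, at 2.11 ± 0.665, 5.24 ± 0.649 and 0.536 ± 0.122 CPM, and was higher in mESC-ser (1.21, SE 0.24, adjusted p = 0.00109) and lower in EpiLC (-2.03, SE 0.38, adjusted p = 0.000546) than in mESC-2i. EpiLC lay below mESC-ser as well (-3.21, SE 0.29, adjusted p = 2.24e-08). Itgad held at most 3 counts, and Itgax held 0 counts in all 9 libraries, which allows a level of up to 0.417 CPM in the shallowest.

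Ptprc, which marks all blood leukocytes, held at most 1 count in any library. The 6 haematopoietic markers summed to between 241 and 263 CPM for mESC-2i, 78.0 to 83.0 for mESC-ser and 30.0 to 30.5 for EpiLC. Laptm5 made up most of this in mESC-2i (238 ± 12.2 CPM) and Coro1a was the highest of the list in EpiLC (12.5 ± 0.921 CPM).

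Itgb1 (chr8:128685654-128733200), the beta partner of most alpha subunits in the list, dominated its class in every state. It stood at 180, 173 and 164 CPM for mESC-2i, 309, 296 and 266 CPM for mESC-ser and 146, 125 and 141 CPM for EpiLC, and made up 78.8% ± 1.61, 81.2% ± 1.88 and 82.2% ± 1.78 of the summed beta level per kb. It was 1.62-fold higher in mESC-ser than in mESC-2i (0.69, SE 0.10, adjusted p = 0.000177), and EpiLC lay 2.00-fold below mESC-ser (-1.0, SE 0.09, adjusted p = 1.49e-08). The lower level in EpiLC than in mESC-2i was under the fold threshold (-0.35, SE 0.09, adjusted p = 0.00499) and passed it with total-count scaling (-0.69).

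Itgb4 (chr11:115974709-116008412), which pairs with alpha6 in hemidesmosomes, was measured at 22.0, 20.7 and 33.8 CPM for mESC-2i, 13.3, 13.4 and 16.6 CPM for mESC-ser and 2.28, 2.60 and 3.27 CPM for EpiLC. The groups did not overlap. Itgb4 was 1.84-fold lower in mESC-ser (-0.88, SE 0.19, adjusted p = 0.00239) and 9.49-fold lower in EpiLC (-3.25, SE 0.25, adjusted p = 7.18e-07) than in mESC-2i, and 5.01-fold lower in EpiLC than in mESC-ser (-2.32, SE 0.18, adjusted p = 3.3e-09). It shares 537 bp of exon with the opposite-strand gene B230344G16Rik.

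Itgb5, a partner of alphav, stood at 17.3, 17.9 and 15.4 CPM for mESC-2i, 29.7, 25.2 and 30.4 CPM for mESC-ser and 15.4, 16.2 and 17.5 CPM for EpiLC. It was higher in mESC-ser (0.70, SE 0.13, adjusted p = 0.000661) and overlapped between EpiLC and mESC-2i (-0.06, SE 0.13, adjusted p = 0.659). EpiLC lay below mESC-ser (-0.72, SE 0.11, adjusted p = 1.57e-05). Itgb7, a partner of alpha4 and alphaE, followed the same order, at 6.26, 7.34 and 6.31 CPM for mESC-2i, 14.3, 15.2 and 14.3 CPM for mESC-ser and 4.29, 5.21 and 5.40 CPM for EpiLC. It was called higher in mESC-ser than in mESC-2i (1.08, SE 0.14, adjusted p = 5.93e-05) and lower in EpiLC than in mESC-ser (-1.46, SE 0.14, adjusted p = 6.88e-08). Against mESC-2i, the EpiLC value of -0.43 (adjusted p = 0.0422) was not past the fold threshold, whereas the corrected one was (-0.68, adjusted p = 0.00319).

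Of the remaining beta subunits, Itgb3, a partner of alphav and alphaIIb, stood at 2.47 ± 0.336, 4.70 ± 0.657 and 0.318 ± 0.101 CPM. It was higher in mESC-ser (0.86, SE 0.20, adjusted p = 0.00353) and lower in EpiLC (-2.91, SE 0.36, adjusted p = 2.57e-05) than in mESC-2i, and lower in EpiLC than in mESC-ser (-3.74, SE 0.33, adjusted p = 1.84e-08). Itgb2, the leukocyte beta subunit, held at most 11 counts and was called higher in EpiLC than in mESC-ser (1.57, SE 0.40, adjusted p = 0.00161), the comparison in which it was tested. Itgb8 held 13, 15 and 10 counts for mESC-2i, 23, 18 and 18 for mESC-ser and 3, 2 and 1 for EpiLC. It was called lower in EpiLC than in mESC-ser by edgeR (adjusted p = 0.000251), and this call was lost under the correction (adjusted p = 0.0762). Itgb6 held at most 2 counts.

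The summed alpha integrin level was 26.4 ± 1.34 CPM per kb for mESC-2i, 100 ± 7.11 for mESC-ser and 42.9 ± 0.592 for EpiLC, and the summed beta level 53.7 ± 1.31, 87.6 ± 4.90 and 40.8 ± 2.56. The alpha to beta ratio was accordingly 0.472, 0.471 and 0.534 for mESC-2i, 1.08, 1.07 and 1.31 for mESC-ser and 1.03, 1.12 and 1.01 for EpiLC. Integrins as a whole stood at 80.1 ± 0.838, 188 ± 5.13 and 83.7 ± 3.07 CPM per kb, so that EpiLC were near mESC-2i in their integrin sum while their laminin sum was lower in each library than in any of mESC-2i.

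**Figure D5:**
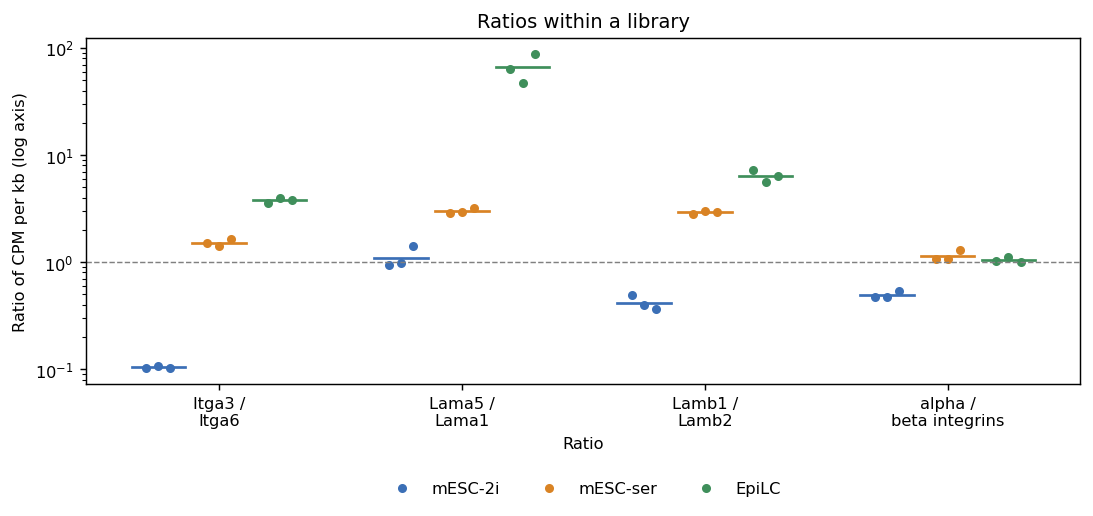
Ratios of levels per kb of exon within each library (log axis), with 3 points per group, a bar at the group mean and a dashed line at 1. The Itga3 to Itga6, Lama5 to Lama1 and Lamb1 to Lamb2 ratios are lowest in mESC-2i and highest in EpiLC in every library, while the alpha to beta ratio of integrins lies below 1 in each mESC-2i library (0.471 to 0.534) and above 1 in all others.

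The other matrix proteins that integrins bind also stood low in EpiLC. Of 16 listed, 15 were tested versus mESC-2i. In EpiLC 14 were called lower and 0 higher by edgeR (12 lower under the correction), with a median log2 fold change of -2.35. Of all genes, 37.8% were called lower and 32.0% higher. Against mESC-ser, 12 of 13 were lower and 1, Fbln1, was higher (1.11, SE 0.10, adjusted p = 2.34e-08). There, 37.8% of all genes were called lower and 35.5% higher. Fn1, the gene of fibronectin itself, stood at 1340, 1230 and 1930 CPM for mESC-2i, 985, 975 and 1180 CPM for mESC-ser and 105, 102 and 100 CPM for EpiLC, which grew on added fibronectin. It fell by 3.89 (SE 0.18, adjusted p = 2.11e-08) on the log2 scale from mESC-2i to EpiLC, and by 3.21 when corrected. The widest fall in that comparison was that of Nid1, which links laminin to collagen IV, from 235 ± 22.3 to 3.69 ± 0.752 CPM (-6.02, SE 0.15, adjusted p = 6.19e-10). Between mESC-ser and mESC-2i the list split, with 6 of 15 higher and 7 lower (25.9% and 30.3% of all genes), and 5 and 7 under the correction. Thbs1, a secreted matrix glycoprotein, rose most (5.35, SE 0.15, adjusted p = 7.3e-09) and was also the one that fell most from mESC-ser to EpiLC (-5.89, SE 0.15, adjusted p = 1.44e-14). Vtn, the gene of vitronectin, had the widest fitted fall in mESC-ser versus mESC-2i, from 1.74 ± 0.519 to 0.0383 ± 0.0663 CPM. It held 0, 0 and 2 counts in mESC-ser, under the floor of 3 counts, so that its fitted value is no measure of fold.

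Of 6 laminin receptors that are not integrins, 1 was called higher and 3 lower in mESC-ser versus mESC-2i, 2 higher and 4 lower in EpiLC versus mESC-2i, and 2 higher and 3 lower in EpiLC versus mESC-ser. In the same order, 25.9% and 30.3%, 32.0% and 37.8%, and 35.5% and 37.8% of all genes tested were called higher and lower. The correction made the counts in mESC-ser versus mESC-2i 2 higher and 3 lower, as it called Bcam, a laminin receptor of red blood cells, higher (0.62, against 0.44 uncorrected). Dag1, which codes for dystroglycan, the receptor that gathers laminin at the cell surface, stood at 135 ± 6.72, 325 ± 32.2 and 11.1 ± 0.247 CPM. It was the one called higher without the correction in mESC-ser (1.21, SE 0.11, adjusted p = 5.25e-06) and had the widest fall from mESC-ser to EpiLC (-4.79, SE 0.11, adjusted p = 6.5e-15). The syndecans, heparan sulphate proteoglycans of the membrane, did not move as 1 group. In EpiLC versus mESC-2i, Sdc2 rose (0.84, SE 0.14, adjusted p = 0.000215) and Sdc3 fell (-4.08, SE 0.19, adjusted p = 2.19e-08), and Sdc2 was also the widest rise from mESC-ser to EpiLC (1.93, SE 0.16, adjusted p = 5.27e-09). Sdc4 had the widest fall in mESC-ser versus mESC-2i (-2.10, SE 0.12, adjusted p = 2.31e-07).

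Of the 5 cell-surface ligands of integrins, Cdh1 (E-cadherin, the ligand of alphaE with beta7) stood at 635 ± 24, 611 ± 16 and 506 ± 19.5 CPM and was not called in any comparison. Icam1, the ligand of Itgal, was lower in EpiLC than in mESC-ser (-1.89, SE 0.10, adjusted p = 2.84e-11). In all, 0 of 3 tested were higher and 2 lower in mESC-ser versus mESC-2i by edgeR, 1 of 4 higher and 2 lower in EpiLC versus mESC-2i, and 0 of 3 higher and 1 lower in EpiLC versus mESC-ser, against the same shares of all genes as for the receptors above. The lower call of Icam1 in mESC-ser versus mESC-2i (-0.53, adjusted p = 0.000571) was lost under the correction, which put it below the fold threshold (-0.34). Vcam1 (1.04 ± 0.0924 CPM in mESC-2i, at most 0.115 CPM in a library of the other groups) and Madcam1 (0.137 ± 0.125 CPM in mESC-2i, 1.74 ± 0.493 in EpiLC) were the other extremes of the list and lay near the floor.

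Of 22 tested components that join integrins to actin, 11 were called higher, 3 lower and 8 not called in mESC-ser versus mESC-2i (median 0.52, and 9 higher and 3 lower under the correction), where 25.9% of all genes were called higher and 30.3% lower. The widest rise was that of Fermt1 (3.92, SE 0.37, adjusted p = 8.32e-06) and the widest fall that of Fermt3 (-2.28, SE 0.25, adjusted p = 1.91e-05), both kindlins, which bind beta subunit tails. In EpiLC versus mESC-2i, 7 of 23 were higher and 8 lower (32.0% and 37.8% of all genes), with Fermt1 (3.08, SE 0.42, adjusted p = 5.7e-05) and the parvin Parvb (-3.02, SE 0.12, adjusted p = 1e-08) at the ends. In EpiLC versus mESC-ser, 3 of 22 were higher and 14 lower (35.5% and 37.8% of all genes), but 6 higher and 7 lower under the correction, with Fermt3 at 3.39 (SE 0.18, adjusted p = 2.83e-11) and Parvb at -3.04 (SE 0.11, adjusted p = 2.57e-13). Of 4 inhibitors of integrin activation, 1 was higher and 2 lower in mESC-ser versus mESC-2i. At the ends were the filamin Flna (1.85, SE 0.13, adjusted p = 7.47e-07) and Dok1 (-1.94, SE 0.15, adjusted p = 1.58e-06), which compete with talin for beta tails. For the inhibitors, the shares of all genes called in each comparison are those given above for the components. In EpiLC, 1 (Sharpin, 0.67, SE 0.13, adjusted p = 0.000617) was higher and 1 (Dok1, -0.88, SE 0.14, adjusted p = 0.000164) lower than in mESC-2i, and under the correction Flna was called higher as well (1.06, against 0.50 uncorrected). Against mESC-ser, 3 of them were higher, led by Dok1 (1.11, SE 0.15, adjusted p = 2.94e-06), and 1 was lower (Flna, -1.31, SE 0.08, adjusted p = 8.81e-11, and -0.55 corrected). Dok1 lost its call under the correction (0.35, adjusted p = 0.0425), which left 2 higher.

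Laminins and their receptors are also made by other cells that such cultures could hold, foremost primitive and parietal endoderm. The 12 endoderm markers summed to between 22.3 and 26.0 CPM for mESC-2i, 52.7 and 53.4 for mESC-ser and 13.1 and 14.9 for EpiLC, with Dab2 the highest in each (11.6 ± 2.03, 18.6 ± 0.114 and 5.84 ± 0.379 CPM). At least 1 library held more than 3 counts for 10 of the 12 in each group, and Afp was at 0 in mESC-ser. In mESC-ser versus mESC-2i 5 of 8 tested were called higher and 2 lower (25.9% and 30.3% of all genes), but 3 higher and 1 lower under the correction. In EpiLC versus mESC-ser 1 of 8 was higher and 6 lower (35.5% and 37.8% of all genes), but 0 higher and 6 lower under the correction. In EpiLC versus mESC-2i, 1 of 6 was higher and 3 lower (32.0% and 37.8% of all genes), with and without the correction. The sum thus ordered the groups as the group means of Lamc1 and Itga6 did. Lama4, Lama5, Itga5, Itga7, Itgal, Itgb1, Itgb3, Itgb5, Itgb7 and Itgb8 had that order of means as well. Some of the differences between groups behind these orders were not called. Members with other orders included Lama1, Lamb2, Lamb3, Itgav and Itgb4, highest in mESC-2i, and Itga3, Lamb1 and Lama3, lowest there. The part of the endoderm markers in the member values was not tested.

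The 8 trophectoderm markers summed to 72.8 to 95.1, 217 to 236 and 89.1 to 90.2 CPM, mostly Krt8 (106 ± 5.85 CPM in mESC-ser) and Krt18 (57.8 ± 2.93 CPM in EpiLC), with Elf5 at 0 in EpiLC. The 10 fibroblast markers summed to 56.7 to 60.0, 114 to 129 and 48.2 to 52.2 CPM, led by Col1a1 in mESC-2i and mESC-ser (22.5 ± 3.68 and 49.6 ± 7.73 CPM) and Thy1 in EpiLC (29.5 ± 2.05 CPM), with Lum at 0 in EpiLC. The 4 endothelial markers summed to 23.2 to 24.8, 20.4 to 20.8 and 3.52 to 4.99 CPM, most of it Tek, with Emcn at 0 in all 9 libraries and Cdh5 at 0 in EpiLC. The part of these markers in the integrin and laminin values was not tested.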

How the data were processed

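Poly-A RNA of 9 E14 libraries was sequenced as 50 bp single-end reads. Per the labels and the study's methods, the authors trimmed the reads (Trim Galore 0.6.6), aligned them to mm10 (HISAT2 2.2.1) and counted them per gene (featureCounts of Subread 2.0.1), and deposited raw counts with no normalization. Annotation release, strand setting and handling of multi-mapping reads are not given in the sources used here. Columns were matched to samples by their names. GENCODE M21 matched 36429 gene IDs (95.1%) and supplied symbols, positions and exon lengths.

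For each comparison the 6 libraries of the groups compared were fitted alone (filterByExpr, TMM, edgeR 4.0.16 quasi-likelihood F-test, R 4.3.3), with Benjamini-Hochberg adjustment over all genes tested. DESeq2 1.42.0 was an alternative, as were other scalings, filters, thresholds, left-out libraries, a replicate block, and length and GC offsets (natural splines with 5 degrees of freedom, fitted on genes averaging at least 50 counts). SE was derived from the F statistic. Scripts were tested on simulated counts in which 200 genes were changed. With a length trend added and no correction, 94.1% to 94.5% of calls were false, against 7.73% to 9.36% with the correction. Without a trend, 5.08% to 8.21% were false. The simulated trend had a fixed strength that was not fitted to these data, so the shares do not carry over to the calls above.

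Same-numbered libraries of mESC-ser and mESC-2i deviated together from their group means (correlations 0.141 to 0.359, other pairs -0.293 to 0.157). The numbers are therefore taken to pair those groups, on the evidence of the data alone. The main fits left this pairing out. With the replicate number as a block, Lama5 was called in mESC-ser versus mESC-2i (0.57) and no other member call changed. Intervals from the floor of 3 counts cover counting error only. Members and lists were chosen with earlier results of these data known. Values per library are given for members averaging at least 10 CPM in a group, of each pathway list the called genes with the widest rise and fall and Fn1 are named, and of each marker list the highest gene. A few other genes of these lists were named after their values were seen. The values of 1 member are not reported here, and counts over the members include it.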

Additional observations from a re-analysis of the deposited data

How the results depend on the processing

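Relative to mESC-2i, the rise of Itga3, Lamb1 and Lama3 in mESC-ser and the fall of Lama1, Lamc1, Lamb2 and Itgav in EpiLC kept their direction and their call under every alternative in which they were tested. Members called higher in mESC-ser versus mESC-2i numbered 9 with at least 10 counts required in every library, where fewer members were tested, and 14 to 16 with 1 library left out. Those called lower numbered 4 with DESeq2, 4 with a nominal p under 0.01, 1 with an absolute log2 fold change over 1, and 3 to 7 with 1 library left out (3 without mESC-ser replicate 2, 4 without mESC-2i replicate 1 and 5 without mESC-ser replicate 1). In EpiLC versus mESC-2i, 8 were higher with no filter and 8 in 1 fit of all 9 libraries, 6 were lower with at least 10 counts in every library, and with 1 library left out 5 to 8 were higher (8 without mESC-2i replicate 1) and 11 to 12 lower. In EpiLC versus mESC-ser, 13 were lower with at least 10 counts in every library, and with 1 library left out 23 to 24 were lower and 4 to 5 higher. Length and GC correction reversed Lama5 (0.11) and Lamb1 (0.65) in that comparison. Total-count scaling moved the median of all genes to -0.45 in EpiLC versus mESC-2i and -0.41 in EpiLC versus mESC-ser. The replicate block called Lama5 in mESC-ser versus mESC-2i (0.57) and changed no other call among the members. In EpiLC versus mESC-2i, same-numbered libraries correlated at 0.0153 to 0.132 and other pairs at -0.135 to 0.0106. In EpiLC versus mESC-ser the values were 0.0124 to 0.036 and -0.0407 to 0.025. Correlations this low do not settle whether the numbers pair EpiLC with the other groups. The 8 members that passed the filter in no comparison held at most 13 counts in a library. They were not tested, and nothing is said here of differences in them.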
